A study of Mus musculus with 2 samples.

Results

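Genes of the solute carrier (SLC) superfamily were described in an RNA immunoprecipitation sequencing (RIP-seq) experiment on BUD31, a protein of the spliceosome. The members were taken from the authors' list of annotated peaks by 2 criteria, a gene kind of protein-coding and a gene symbol made of Slc followed by a number. This gave 51 genes with 152 peaks, of 3258 genes and 16331 peaks in the whole list. Germ cells came from C57BL/6J testes at postnatal day 14 and were freed by enzymatic digestion. The anti-BUD31 group and the input group have 1 library each, and the input stands for 10% of the total RNA. Both libraries come from untreated cells of the same strain and age, and the sources used here do not say how many animals they hold. For every peak the list gives its position, annotation class, transcript and gene, but no read count, fold, score or strand, so the depth is unknown. No difference could therefore be checked in replicates or given a p-value. Ranges in parentheses after a percentage are Wilson 95% intervals; they cover only the counting error over genes or peaks, which are not replicates.

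Solute carriers move small molecules across membranes. Each family is known by a number that groups proteins of similar sequence, and members of 1 family often share a substrate class, such as zinc, monocarboxylates or protons. Heteromeric amino acid carriers, sodium-proton exchangers and cation-chloride cotransporters act mostly at the surface or in endosomes, whereas family 25 lies in mitochondria, where it links the cytosol to oxidative metabolism. In the testis, solute carriers feed lactate, amino acids, zinc and vitamins to germ cells behind the blood-testis barrier, and sodium-proton exchange is needed in maturing sperm. BUD31 acts with the activated spliceosome, which removes introns from pre-mRNA.

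The authors' peaks were read to ask which transcripts may have been recovered with BUD31. How the input entered the peak calls was not given in the sources used here, so a peak is not known to mean enrichment over it. Solute carrier genes had a peak about as often as other coding genes. The reference gene table places 272 coding Slc genes on chromosomes with at least 1 peak, and 52 of them had a peak (19.1%, 14.9% to 24.2%), the 51 members and Slc49a4, which the list names by its older symbol, Dirc2. Of all 14864 coding genes there 18.1% had one. A chromosome was called well covered when at least 10% of its coding genes had a peak, which held for chromosomes 1, 5, 8, 10, 12, 16, 18 and X. On these, 50 of 127 Slc genes had a peak (39.4%, 31.3% to 48.1%), against 34.4% of all coding genes. When each Slc gene was set beside the other coding genes of its own chromosome and group of gene span, their share was 38.6%. With peaks at least as wide as the median of their chromosome, 35 of the 272 Slc genes had one (12.9%, 9.4% to 17.4%), against a background of 14.3%. The Slc share was near the background, and it is no result about these genes as a class. On the thinly covered chromosomes 2 of 145 Slc genes had a peak, among them Slc9a8 on chromosome 2. The background there was 2.1%, so the 143 Slc genes without a peak on those chromosomes say little.

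The share with a peak rose steadily with gene span among other coding genes, and unevenly among the few Slc genes of each span group. The genes of the well covered chromosomes were divided into 5 groups of equal size by span. In the shortest group, up to 5340 bp, 2 of 7 Slc genes had a peak (28.6%, 8.22% to 64.1%) and 9.36% of other coding genes did. The groups after it held 6 of 26 Slc genes with a peak (23.1%, 11% to 42.1%), against 25.3% of the others, and 16 of 35 (45.7%, 30.5% to 61.8%), against 37.4%. In the longest group, from 71034 bp, 13 of 22 did (59.1%, 38.7% to 76.7%), against 50.9% of the others. In the next to longest group 13 of 37 Slc genes had one (35.1%, 21.8% to 51.2%), with the share of the others, 49.1%, inside that interval. In every group the share of the other coding genes lies inside the Slc interval, and the Slc intervals of the shortest and longest groups overlap. Among the longest Slc genes without a peak on those chromosomes were Slc14a2 (451 kb), a urea transporter, Slc4a4 (446 kb), a sodium bicarbonate cotransporter, and Slc35f1 (421 kb), an orphan.

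The X chromosome held 10 of the 51 members and 50 of the 152 peaks. Of 13 X-linked Slc genes 10 had a peak (76.9%, 49.7% to 91.8%), against 47.7% of all X-linked coding genes and 55.8% of those in the same span groups. The interval holds the matched share. The X-linked Slc genes without a peak were Slc7a3, Slc10a3 and Slc38a5. Of the 10 with a peak, 2 had it only outside the gene. On the well covered autosomes 40 of 114 Slc genes had a peak (35.1%), and the background was 32.4%.

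Most members had few peaks. There were 16 members with 1 peak and 18 with 2, while 9 members had 5 or more and together held 73 peaks (48%). The median was 2 peaks per gene, with quartiles of 1 and 3, and the other coding genes in the list had a median of 3. This difference did not hold by chromosome. On the well covered autosomes both medians were 2, and on the X chromosome the Slc median was 4.5 (10 genes) against 3. The highest count in a member was 16, in Slc25a21, and other coding genes reached 154. The plot of peaks per gene shows these counts with their classes.

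**Figure D1:**
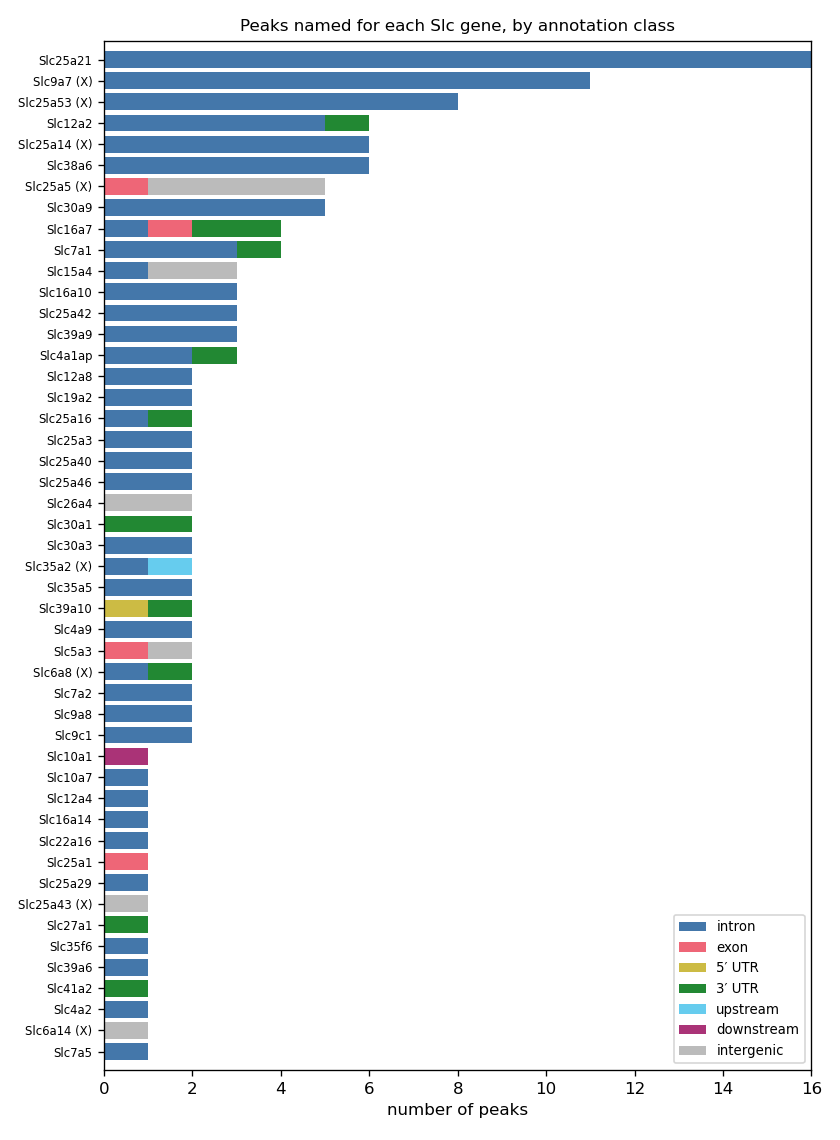
Number of peaks named for each of 48 of the Slc genes (horizontal axis), divided by the authors' annotation class (colours), with X-linked genes marked (X). Slc25a21 leads with 16 intron peaks, followed by the X-linked exchanger gene Slc9a7 with 11, and 15 of the genes drawn have 1 peak.

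Introns held 119 of the 152 peaks (78.3%, 71.1% to 84.1%), and 29 members had intron peaks only. Among the peaks of other coding genes 84.6% were in introns. The 3′ UTR held 15 peaks (9.87%, 6.07% to 15.6%), against 5.39% of the peaks of other genes. Counted by gene the answer depended on the rule. Of 51 members 13 had any 3′ UTR peak (25.5%, 15.5% to 38.9%), and 24% of other coding genes did. With the widest peak of each gene alone, 9 of 51 members had it in the 3′ UTR (17.6%, 9.57% to 30.3%), and 9.03% of other coding genes, just below the interval. Exons held 4 peaks, the 5′ UTR 1, and 13 lay outside genes by the authors' classes. Each peak has a single class, and a wide intron peak can also cover exons. Without strand, peaks where genes overlap cannot be divided between them, which touches 6 of the 152.

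The median Slc peak was 2025 bp wide, with quartiles of 800 and 3514 bp and extremes of 200 and 29200 bp. For other coding genes the median was 1400 bp. Positions come in bins of 200 to 230 bp, fixed per chromosome, and 7 Slc peaks (4.61%, 2.25% to 9.2%) were 1 bin wide, against 13.2% of the others. Part of the peaks' widths goes with the chromosome. The X chromosome, with wider peaks, held 32.9% of the Slc peaks and 20.8% of the others. Chromosome 1, with narrower peaks, held 7 of the 152 Slc peaks and 4317 of the 14259 others. These 4317 had a median of 1025 bp, and 20.1% of them were 1 bin wide. Within chromosomes the Slc median was the higher one on 1, 5, 12, 16 and X, and the lower one on 8, 10 and 18. On chromosome 12 it was 3280 bp against 2255 bp, and on chromosome 10 it was 600 bp against 1000 bp.

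**Figure D2:**
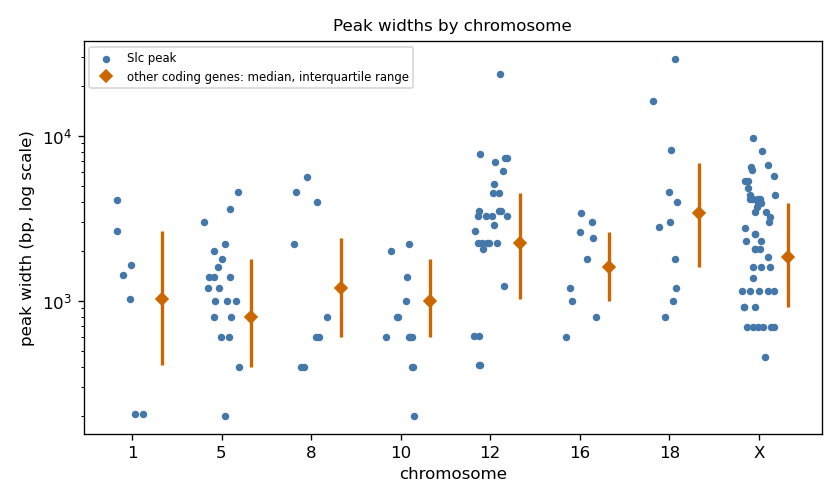
Width of each Slc peak in bp (blue points, log scale) on the 8 well covered chromosomes, with the median (diamond) and interquartile range (bar) of peaks of other coding genes. The Slc medians run from 600 bp on chromosome 10 to 3280 bp on chromosome 12, and the widest Slc peak, 29200 bp, lies on chromosome 18.

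Peaks covered a median of 8.72% of a member's span (quartiles 2.81% and 29.5%), against 13.6% for other coding genes with a peak. The counting interval of the Slc median, 4.1% to 16.6%, holds that value. There were 12 members with over 40% of the gene under peaks and 22 with less than 5%. X-linked members had a median of 47.7% (10 genes, quartiles 6.44% and 52.2%) and members on the well covered autosomes 8.48% (39 genes). For other coding genes these medians were 35.8% and 12.5%. Of the 12 highly covered members, 6 were mitochondrial carriers, a group that made up 12 of all 51 members. Among these 6, Slc25a5, Slc25a14 and Slc25a53 are X-linked.

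**Figure D3:**
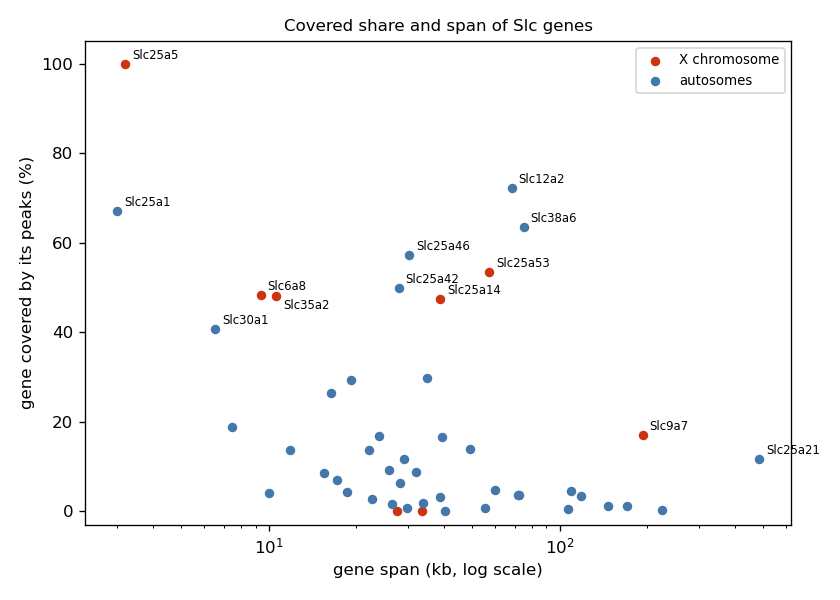
Share of each gene covered by its own peaks (vertical axis, %) against gene span (kb, log scale) for 48 of the Slc genes, X-linked genes in red and autosomal ones in blue. Slc25a5, of 3.21 kb, is covered to 100%, whereas Slc25a21, of 485 kb, has the most peaks and is covered to 11.7%.

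Mitochondrial carriers of family 25 were the substrate group with most peaks. Of 16 such genes on the well covered chromosomes 12 had a peak (75%, 50.5% to 89.8%), and other coding genes of the same chromosomes and span groups had one in 32.8%, below that interval. The background on these chromosomes was 34.4%. On the autosomes among them 8 of 12 did (66.7%, 39.1% to 86.2%), against 24% of matched genes. Counting only peaks inside the gene gave 11 of 16 (68.8%, 44.4% to 85.8%), against 30.5% of matched genes and a background of 32.4%. With the wider peaks alone 9 of 16 had one (56.2%, 33.2% to 76.9%), against 25.8% and a background of 27.4%. Family 25 was 1 of 9 substrate groups compared, and expression levels, which are unknown here, were not matched. The 4 carriers without a peak were Slc25a2 and Slc25a15, both ornithine carriers, Slc25a4, the ADP/ATP carrier of heart and muscle, and the liver carrier Slc25a47. Another 17 coding genes of the family lie on thinly covered chromosomes, and none of them had a peak. Genes on chromosomes without any peak in the list were not counted.

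**Figure D4:**
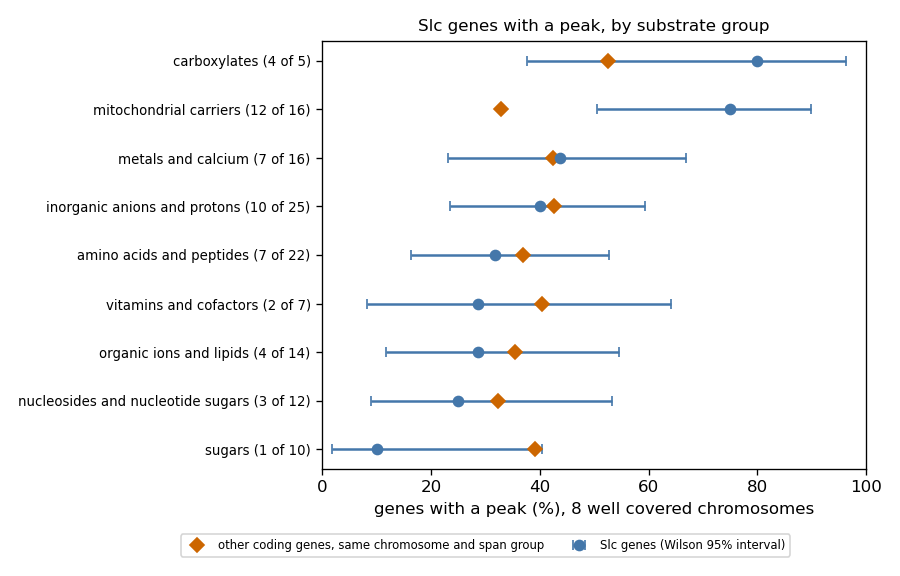
Share of Slc genes with a peak (blue, with Wilson 95% intervals) on the 8 well covered chromosomes for each of 9 substrate groups, beside the share of other coding genes of the same chromosome and span group (orange diamonds). For mitochondrial carriers (75% against 32.8%) the diamond lies below the interval, and for the other 8 groups it lies inside.

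Among members with known strand, Slc25a1, Slc25a5, Slc25a42 and Slc35a2 had a peak over the start of the gene. Of these, Slc25a5 and Slc25a1 are short mitochondrial carriers, and the bases before their starts are printed because the peaks reach across them. Slc25a5, the X-linked ADP/ATP carrier, spans 36795597 to 36798808 on the plus strand, and 1 exon peak of 3910 bp, 36794941 to 36798850, covers all of its 3212 bp. Slc25a1, the carrier that exports citrate for lipid synthesis, lies on the minus strand of chromosome 16 at 17925211 to 17928219. Its only peak, classed as exon, runs from 17926201 to 17928600 and covers 67.1% of it. The 250 bases before each start follow, 5′ to 3′ on the gene's strand, from RefSeq's GRCm38.p6, the assembly also called mm10, at chrX:36795347-36795596 and chr16:17928220-17928469. Capitals mark GGGCGG, the GC box, and CCAAT, on either strand, so that CCGCCC and ATTGG are marked too.
Slc25a5: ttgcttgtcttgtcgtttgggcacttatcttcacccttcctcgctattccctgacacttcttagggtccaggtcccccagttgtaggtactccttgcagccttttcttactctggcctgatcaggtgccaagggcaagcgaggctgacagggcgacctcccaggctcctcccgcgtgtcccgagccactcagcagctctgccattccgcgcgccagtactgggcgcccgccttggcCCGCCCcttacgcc
Slc25a1: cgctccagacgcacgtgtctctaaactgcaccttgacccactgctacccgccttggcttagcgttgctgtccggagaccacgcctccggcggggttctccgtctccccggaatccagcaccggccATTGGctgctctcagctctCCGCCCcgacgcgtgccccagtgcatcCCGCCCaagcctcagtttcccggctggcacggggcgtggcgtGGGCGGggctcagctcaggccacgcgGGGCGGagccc
The Slc25a5 window holds 1 GC box and the Slc25a1 window 4, with 1 CCAAT, and neither holds TATAAA. Of all 32851 such windows 32.7% hold GGGCGG, 33.8% CCAAT and 12.4% TATAAA, so these matches are common. GC content was 61.6% for Slc25a5 and 70% for Slc25a1. For Slc genes of the well covered chromosomes the median was 61.9% with a peak (40 genes) and 60% without (57 genes). Near-identical copies elsewhere in the genome could share reads with Slc25a5, as with the phosphate carrier gene Slc25a3, so the peaks of both are uncertain.

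Around Slc25a5 another 4 peaks, all classed as intergenic, were named for it. Those of 690 bp and 920 bp lie before the gene, in the 18289 bp that separate it from its neighbour Slc25a43, an orphan carrier. The others, of 690 bp and 2300 bp, lie 3493 and 4873 bp past its end. The only coding peak named for Slc25a43, of 690 bp, lies 29360 bp before that gene. An intron peak of 1380 bp inside Slc25a43 was assigned to a noncoding transcript and is not among the 152.

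Slc25a21, which exchanges oxodicarboxylates of lysine breakdown, carried 16 intron peaks on chromosome 12 between 56735801 and 57194385. They were 410 to 7790 bp wide with a median of 3280 bp. When each gene is divided into 3 equal parts from its start to its end, 14 of the 16 were in the first part, and the others were centred at 36.7% and 95% of its length. Slc25a53, an X-linked orphan carrier, had 8 intron peaks of 460 to 9660 bp over 53.5% of its 57.2 kb. Its first 2 peaks by position also overlap Zcchc18 and Gm15038, and the list gives no strand to separate them. Slc25a14, a mitochondrial uncoupling protein relative on the X chromosome, had 6 intron peaks over 47.3% of the gene.

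Other carriers had 1 to 3 peaks. Slc25a42, which imports coenzyme A, had 3 intron peaks of 4000 to 5600 bp over 49.9% of the gene. Slc25a46, a protein of the outer mitochondrial membrane that acts in mitochondrial dynamics, had an intron peak of 16200 bp and 1 of 1200 bp, together over 57.3%. Slc25a3, the phosphate carrier of oxidative phosphorylation, had 2 intron peaks over 18.7% of its 7.47 kb. Slc25a40, a mitochondrial glutathione importer, had 2 of 1400 bp each. Slc25a16, linked to coenzyme A transport, had 1 peak of 1000 bp in an intron and 1 of 1400 bp in the 3′ UTR, and Slc25a29, a basic amino acid carrier, had 1 intron peak of 410 bp.

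Among carriers of protons and inorganic ions 10 of 25 on the well covered chromosomes had a peak (40%, 23.4% to 59.3%), near the 42.7% of matched genes. The sodium-proton exchangers of family 9 carried most of their peaks. Slc9a7, the exchanger of the trans-Golgi network, had 11 intron peaks of 1150 to 5750 bp on the X chromosome. They covered 16.9% of its 193 kb, with 7 in the first of the 3 parts.

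Slc9c1 and Slc9a8 lie on autosomes, so their peaks cannot be set beside those of X-linked Slc9a7 without the difference between chromosomes. Slc9c1, the sperm-specific exchanger required for motility, had 2 intron peaks of 800 and 1800 bp over 3.62% of the gene on chromosome 16. Slc9a8, an exchanger that takes part in acrosome formation, had 2 intron peaks of 200 bp each, the width of 1 bin, separated by 1 bin. The family members without a peak on well covered chromosomes were Slc9a2, Slc9a4 and Slc9a5.

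Slc12a2, the sodium-potassium-chloride cotransporter NKCC1, which is required for male fertility in mice, was covered more than any member but Slc25a5. It had 6 peaks over 72.2% of its 68.3 kb on chromosome 18. The first, of 29200 bp, is the widest of all Slc peaks and covers 42.6% of the gene, although it is classed as intron. The last, of 4600 bp, lies in the 3′ UTR. Slc12a4, a potassium-chloride cotransporter, had 1 intron peak of 600 bp, and Slc12a8 had 2 intron peaks over 1.09%. Slc12a3 and Slc12a9 had none.

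In the bicarbonate family Slc4a2, an anion exchanger, had 1 intron peak of 1200 bp and Slc4a9 had 2 over 6.38% of the gene. Slc4a1ap was chosen by its symbol, but it encodes an adaptor protein that binds the anion exchanger and is no carrier itself. It had 2 intron peaks and 1 of 4600 bp in the 3′ UTR, over 29.7% of the gene. The 2 peaks named for Slc26a4, the anion exchanger pendrin, lie 30241 and 33111 bp outside it and cover none of it. The second of them overlaps Bcap29.

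Zinc transporters made up 6 of the 7 metal carriers with a peak, 3 of family 30, which moves zinc out of the cytosol, and 3 of family 39, which moves it in. Of 16 metal and calcium carriers on the well covered chromosomes 7 had a peak (43.8%, 23.1% to 66.8%), near the 42.4% of matched genes. Slc30a9, a mitochondrial zinc transporter, had 5 intron peaks of 600 to 3000 bp over 13.8% of the gene, and 4 of them lay in the last of the 3 parts. Slc30a1, the zinc exporter of the cell surface, had 2 peaks of 1025 and 1640 bp, both in the 3′ UTR, over 40.7% of its 6.55 kb. Slc30a3, which loads zinc into vesicles, had 2 intron peaks.

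Slc39a10 was the only member with a 5′ UTR peak, of 1435 bp, and it also had 1 of 2665 bp in the 3′ UTR but none in an intron. The peak classed as 5′ UTR was centred at 69.7% of the gene's length and did not cover the gene's start. Slc39a6, which forms a zinc importer with the Slc39a10 product, had 1 intron peak of 4000 bp over 16.7% of the gene. Slc39a9 had 3 intron peaks over 16.6%. The magnesium transporter Slc41a2 had 1 peak of 400 bp in the 3′ UTR of a gene of 107 kb. Slc30a10, Slc39a3, Slc39a5, the iron exporter Slc40a1 and Slc41a1 had none.

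Of 22 genes on the well covered chromosomes grouped by family number as amino acid and peptide carriers, 7 had a peak (31.8%, 16.4% to 52.7%). This was near the 36.9% of matched genes. The 22 include Slc7a6os, placed there by its symbol alone. Slc38a6, of the sodium-coupled neutral amino acid family, stood out among the 7, with 6 intron peaks over 63.5% of its 75.3 kb. The widest, of 23780 bp, lies at chromosome 12, 73317841 to 73341620. Slc7a1, the cationic amino acid transporter of the cell surface, had 3 intron peaks of 200 to 800 bp within the first 13.8% of the gene and 1 peak of 1000 bp in the 3′ UTR. Its relative Slc7a2 had 2 intron peaks, and Slc7a5, the light chain of a large neutral amino acid transporter, had 1 of 400 bp.

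Slc6a8, the X-linked creatine transporter, had 1 intron peak and 1 peak of 3450 bp in the 3′ UTR, over 48.4% of its 9.37 kb. The single peak named for Slc6a14 lies 20840 bp outside it. Slc15a4, a lysosomal histidine and peptide transporter, had 1 intron peak and 2 classed as intergenic, of which 1 reaches 256 bp into the gene.

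In the monocarboxylate family 4 of 5 genes on the well covered chromosomes had a peak (80%, 37.6% to 96.4%), and 52.5% of matched genes did. Their peaks were narrow, with a median of 745 bp, and covered 0.688% to 4.41% of genes that run up to 170 kb. Slc16a7, which takes up lactate and pyruvate, had 2 peaks in the 3′ UTR, 1 in an exon and 1 in an intron, of 200 to 800 bp. Slc16a10, an aromatic amino acid transporter, had 3 intron peaks, and Slc16a14, an orphan, had 1 of 205 bp. Slc16a9 had none.

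Nucleoside and nucleotide sugar carriers had a peak in 3 of 12 genes on the well covered chromosomes (25%, 8.89% to 53.2%), near the 32.4% of matched genes, and all 3 belong to family 35. Slc35a2, the X-linked UDP-galactose transporter of the Golgi, had 1 intron peak of 4140 bp and 1 of 2760 bp classed as upstream. The latter covers 940 bp of the gene and also overlaps Pim2. Slc35a5 had 2 intron peaks over 29.3% of the gene and Slc35f6 had 1 over 13.6%.

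Of the 10 genes on the well covered chromosomes grouped by family number as sugar carriers only Slc5a3 had a peak (10%, 1.79% to 40.4%). The 39.2% of matched genes lies inside the interval. Slc5a3 takes up myo-inositol. Its exon peak of 3400 bp overlaps Mrps6, which the reference table places over the same stretch, and another peak of 1200 bp lies 4522 bp before it. Slc2a9 and Slc2a12, of the facilitative sugar transporter family and grouped here by its number, and Slc45a3 had none. Nor had 6 other genes of family 5, among them the glucose transporter gene Slc5a1 and, grouped here by family number alone, the iodide transporter gene Slc5a5.

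Vitamin carriers had a peak in 2 of 7 genes on the well covered chromosomes (28.6%, 8.22% to 64.1%), against 40.4% of matched genes, and organic ion and lipid carriers in 4 of 14 (28.6%, 11.7% to 54.6%), against 35.5%. Both intervals hold the matched share. Slc19a2, the thiamine transporter whose loss makes male mice infertile, had 2 intron peaks of 205 and 4100 bp over 26.3% of its 16.3 kb. Slc22a16, a carnitine transporter known from the testis and epididymis, had 1 intron peak of 600 bp. Slc27a1, a fatty acid transport protein, had 1 peak of 800 bp in the 3′ UTR. Slc10a7 had 1 intron peak of 400 bp in a gene of 225 kb. Slc10a1, the bile acid transporter of the liver, had 1 peak classed as downstream, which covers 1316 bp of the gene.

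Counted by peak, intron peaks lay more often towards the start of the gene, but a few genes with many peaks weighed heavily in this. Strand was known for 40 members, from RefSeq's promoter table. The 11 without an entry included Slc4a9, Slc6a8, Slc7a2, Slc7a5, Slc12a2, Slc16a7, Slc25a46 and Slc39a6. Of 92 intron peaks centred in a gene with known strand, 44 were in the first of the 3 parts (47.8%), 30 in the middle and 18 in the last (19.6%). For other coding genes 35.6% were in the first part and 29.5% in the last. Without Slc25a21, 30 of 76 were in the first part (39.5%) and 17 in the last (22.4%). Of those 30, Slc9a7 gave 7. Peaks of the same gene are not independent. Over the 104 peaks classed inside a gene with known strand the median position was 38.2% of the gene's length, and with the widest peak of each gene alone it was 57.1% (35 genes). The 3′ UTR peaks had a median position of 96.6% (8 peaks).

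**Figure D5:**
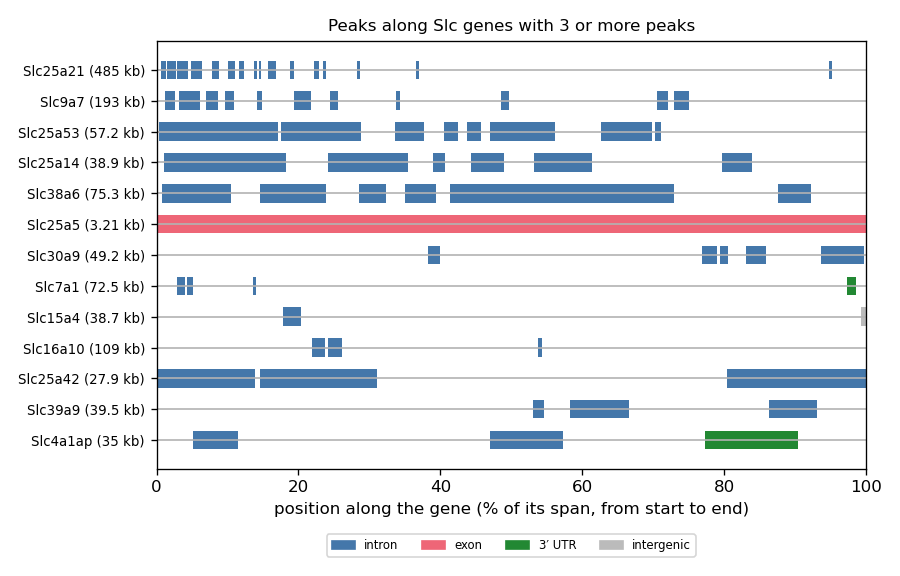
Peaks along the 13 Slc genes with known strand and at least 3 peaks, drawn from gene start (0) to gene end (100%), with the span in kb beside each name and the colour giving the class. Those of Slc25a21 crowd near the start, with 14 of 16 in the first of 3 equal parts, whereas 4 of 5 peaks of Slc30a9 lie in the last.

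Another 13 peaks named for Slc genes were assigned to noncoding transcripts and fall outside the rule. Of these 7 lie in introns of Slc35f5, from 125565166 to 125590380 on chromosome 1, and cover 53.4% of that gene, which had no coding peak. Slc15a4 and Slc38a6 had 2 each, and Slc25a43 and Slc7a6os had 1 each. Peaks named for other genes also reached into Slc51a and Slc23a1, over 5.06% and 36.7% of the gene. The 6 peaks listed under Dirc2 lie in introns of Slc49a4.

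The numbers that the authors gave their peaks run past those in the list, so part of the numbered set is not in it. Between the first and last peak of the 8 X-linked members with several peaks, 48 of 55 numbers (87.3%) were in the list. For the 27 such members on other chromosomes it was 92 of 177 (52%). Slc9a7 kept all of its 11 numbers, while Slc25a21 kept 16 of 36 and Slc16a7 4 of 16. The part of this in the peak counts and coverage of X-linked members was not tested.

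Other genes of membrane transport were read in the same way. ABC transporters of the well covered chromosomes had a peak in 10 of 20 genes (50%, 29.9% to 70.1%) and ion-pumping and lipid-flipping ATPases in 15 of 29 (51.7%, 34.4% to 68.6%), against a background of 34.4%. Other coding genes of the same chromosomes and span groups had one in 43.3% and 44.8%, inside both intervals. Abcc1, a multidrug exporter, had 7 peaks, and Atp9b, of the lipid flippase family, had 22. Of 31 potassium channel genes 6 had a peak (19.4%, 9.19% to 36.3%), and the 39.9% of matched genes lies above that interval. The channels were 1 of several lists compared, and expression levels, unknown here, were not matched. Of 4 organic anion transporters of the Slco type 2 had a peak (50%, 15% to 85%), near the 49.3% of matched genes. These were Slco6c1 with 11 peaks and Slco6d1 with 10. Of 10 Mfsd genes 1 had a peak (10%, 1.79% to 40.4%), and 30.6% of matched genes did.

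The labelled cells were checked by their markers. Of 6 germ cell markers on chromosomes with peaks 4 had a peak (Mael, Sycp2, Sycp3 and Tex11). So did 2 of 5 Sertoli markers (Kitl and Wt1), 1 of 3 erythroid markers (Alas2), none of 3 Leydig markers and none of 3 macrophage markers. On well covered chromosomes lie 3 of these germ cell, 3 Sertoli, 2 Leydig, 1 macrophage and 1 erythroid markers. With 18.1% of all coding genes having a peak, and 2.1% on the thinly covered chromosomes, counts this small do not separate the cell types. The part of RNA from other testis cells in the Slc peaks was not tested.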

How the data were processed

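RIP-seq was done on germ cells of postnatal day 14 mouse testis, with 1 anti-BUD31 and 1 input library. Per the submitters' processing notes, TopHat2 2.0.13 and the mm10 genome were used. The peak caller, its threshold, the annotation and the use made of the input were not given in the sources used here. What the authors deposited is 1 table with other values than counts or signal: per the file headers, the start and end of each peak, with its class and gene.

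Members were matched by gene number to RefSeq's GRCm38.p6 table (51 of 51). A gene has a peak when a coding row names it. Coverage is the union of a gene's peaks over its span. Matched shares are the mean, over the genes of a list, of the share of other coding genes of the same chromosome and span group. Substrate groups follow the family number. The members and lists were chosen with earlier results of these data known. The rule for genes named in the text was those with most peaks, coverage or width, those with exon or UTR peaks, and the 4 families with most members with a peak; most other members were added afterwards. Values of some single genes are not reported here, though the counts and medians include them. Functions were tested on simulated data. Python 3.11.15, numpy 2.4.6, pandas 2.3.3, scipy 1.17.1 and matplotlib 3.10.9 were used.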

Additional observations from a re-analysis of the deposited data

How the results depend on the processing

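Of 123 recomputed values of 25 results 107 lay inside the counting interval of the reported value and 16 outside. On the well covered chromosomes alone the share of genes with a peak rose by construction, as thinly covered ones leave the count: to 39.4% for all Slc genes, 31.8% for amino acid, 75% for mitochondrial, 43.8% for metal, 80% for carboxylate and 28.6% for organic ion carriers, 50% for ABC transporters and 51.7% for ATPases. With only the wider peaks of each chromosome it fell, with fewer peaks, to 12.9% for all Slc genes, 6.67% for carboxylate, 17.1% for inorganic ion and 2.70% for organic ion carriers. The median width then rose to 3280 bp, also by construction. The intron share was 85.6% among peaks inside genes and 66.7% with the widest peak per gene, where the median position moved to 57.1% from 38.2%; the cause was not tested. Settings with peaks of any type, without the X chromosome or without Slc25a21 were added after seeing the data and took no value outside its interval. No paired analysis was possible because each group has 1 library. Depth is unknown, so the lack of a peak does not show that a transcript was absent or unbound.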
